A study of Mus musculus with 8 samples.

Results

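The genes described here are those of 4 families of growth factor signalling, the fibroblast growth factors (FGF), the platelet-derived growth factors (PDGF), the insulin-like growth factors (IGF) and the epidermal growth factor (EGF) family. The rule goes by gene names and uses no ratio, and it was set with earlier results of these data known. A probe belonged to the set when its annotated gene was a numbered Fgf or Fgfr gene, a Sprouty gene, a PDGF ligand or receptor, an IGF ligand, receptor or binding protein, or a neuregulin, or when it was 1 of 11 other listed genes of the EGF and FGF pathways. Fgf15 and Igfbp4 were left out by the rule. In all, 57 of 15123 named genes qualified, measured by 86 of the 38467 probes in the table. Fgfr1op2 entered only because its name begins like that of a receptor, and it is not an FGF receptor.

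These families carry signals between the layers of the fetal gut. Most ligands are secreted, many FGF, PDGF and IGF ligands by or towards the mesenchyme under the epithelium, and they act through receptor tyrosine kinases on the surface of the receiving cell. Signal strength is set further by binding proteins in the matrix, which hold IGF ligands, and by inhibitors inside the cell such as the Sprouty proteins, whose genes are switched on by the signal they dampen.

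The study set ileum of LGR5-/- mouse embryos against ileum of LGR5 +/+ embryos of late gestation, labelled E18.5 and, in the design text, E18.5-E19. LGR5 is a receptor of R-spondins in the Wnt pathway and a marker of intestinal stem cells, and the series title asks about cell lineage differentiation without it. The 4 pairs, each of 1 null and 1 wild-type embryo, came from 3 couples of heterozygous parents, so embryos of at least 2 pairs share parents and are not fully independent. The sources used here do not give the null allele or the strain. Each pair was hybridised on 2 arrays of 70-base probes, the null sample in Cy5 on the first array and in Cy3 on the second.

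Each value is a ratio of null over wild type on a log2 scale, 1 per probe and array, so -1 stands for a halved level and 0 for equal levels. The log base is an assumption, on which every fold rests, and the direction was read from the channel labels and the Lgr5 probe. The 2 arrays of a pair were averaged and the pair was the replicate. Means are given ± SD with n = 4 pairs. The files hold no spot brightness, so levels in either genotype, and whether a probe was above background, could not be read. A ratio near 0 therefore does not show that a gene was expressed. Array medians lay between -0.002 and 0.002, and the 2 arrays of a pair correlated across probes at r = 0.312 to 0.783. Marker lists differed from pair to pair, with liver markers highest in pair 3 at a median of 1.92 and immediate early genes highest in pair 1 at a median of 0.78.

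Lgr5, the targeted gene, had log2 ratios of -1.61, -0.92, -1.92 and -1.93 in null over wild type in pairs 1 to 4. The mean was -1.59 ± 0.47, below 0 in every pair. The sources used here do not say whether its single probe lies in the part of Lgr5 that is missing.

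None of the 86 growth factor probes passed the threshold for a difference between the genotypes. The lowest adjusted p among them was 0.744 (limma, Benjamini-Hochberg over 36591 probes, threshold 0.05), and 0 of all probes passed, a share of 0%, with a lowest adjusted p of 0.480. At an unadjusted p under 0.05, 0 of the 86 lay above 0, against 2.33% of all probes, and 7 lay below 0, or 8.14%, against 3.15% of all probes. These 7 were both Igfbp5 probes and 1 probe each of Igfbp6, Igf1, Igf2r, Fgf18 and Pdgfra. The IGF axis supplied 5 of them from its 13 probes, while the FGF family supplied 1 from 46 probes, the PDGF family 1 from 10 and the EGF family 0 from 14. Counted as genes, 5 of 57 lay below 0 at that p, against 3.68% of all genes. These were Igfbp5, Igfbp6, Igf2r, Fgf18 and Pdgfra, without Igf1. By sign alone, 6 of the 86 lay above 0 in all 4 pairs (6.98%, against 7.0% of all probes) and 10 lay below 0 in all 4 pairs (11.6%, against 7.44%). At the level of genes, 21 of 57 had a mean above 0 and 36 below, with a median of -0.02, against a median of 0.00 over all 15123 genes. With 4 pairs, the smallest p that exact sign flipping can reach is 0.125.

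**Figure D1:**
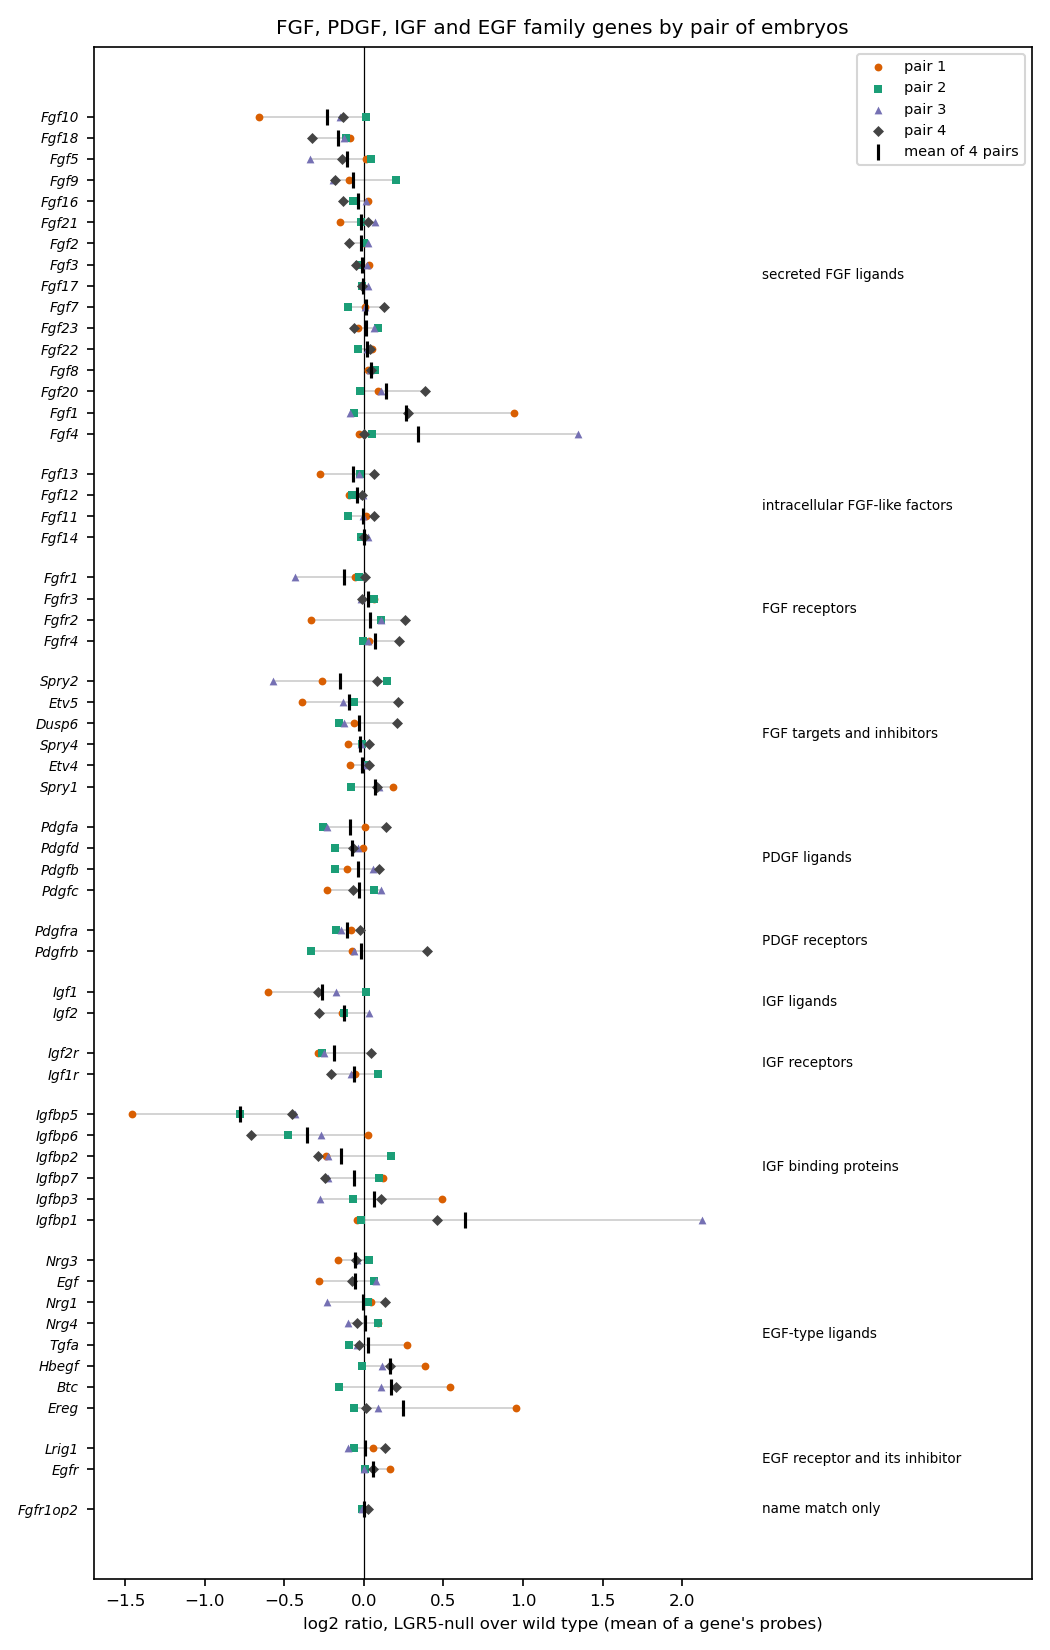
Log2 ratio of null over wild type (x axis) for each of the 57 genes (rows, grouped by role), as the mean of a gene's probes in each of the 4 pairs (coloured symbols) and over the pairs (black bar). Igfbp5 lay furthest to the left at a mean of -0.78, Igfbp1 furthest to the right at 0.63, and the pairs of many genes lay on both sides of 0.

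Igfbp5 was the member with the lowest mean ratio, and its ratio differed in size between pairs. Its product is a secreted protein that binds IGF1 and IGF2 and also binds matrix, and it can hold the ligands back or keep them near their receptors. Both probes lay below 0 on all 8 arrays. Probe mMR030084 gave -1.40, -0.72, -0.51 and -0.55 in null over wild type in pairs 1 to 4, a mean of -0.79 ± 0.41, or 0.577 of the wild-type level. Probe mMC019359 gave -1.52, -0.85, -0.35 and -0.35, a mean of -0.77 ± 0.55, or 0.587 of the wild-type level. The order of the pairs was alike on both probes, with pair 1 the lowest, pair 2 next, and pairs 3 and 4 close together. Neither passed over all probes (limma adjusted p = 0.744 and 0.864). Their means ranked 34 and 38 from the lowest of 36591 probes, and their p-values in the same limma test ranked 212 and 660 from the smallest. With all 8 arrays in the fit and the pair as a random block, probe mMR030084 passed (limma adjusted p = 0.0367) and probe mMC019359 did not (0.107). The 2 arrays of a pair are technical replicates, and the fit applied 1 correlation of 0.306 to all probes. On probe mMR030084 they lay close together, at -1.34 and -1.46 in pair 1, while the pairs differed. The fit thus counted them in part as separate replicates, and with pair means the probe did not pass. That fit put 1 of the 86 member probes below 0 past the threshold, against 0.172% of all probes. Without pair 1, the means were -0.59 and -0.52. In RNA of whole ileum, fewer cells of a type and less RNA per cell cannot be told apart.

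The promoters of 2 genes are shown because these genes hold the lowest and the highest mean of the set. The sequences are RefSeq's for GRCm38.p6, 5′ to 3′ on the gene's own strand, from 250 bases before the start site to 50 after it. Of the 57 genes, 44 had an entry. Igfbp5 is at chr1:72874816-72875115 on the minus strand and Igfbp1 at chr11:7197537-7197836 on the plus strand. Capitals mark a TATA-like TATTTAA in Igfbp5 and an insulin response core CAAAACA in Igfbp1.
Igfbp5: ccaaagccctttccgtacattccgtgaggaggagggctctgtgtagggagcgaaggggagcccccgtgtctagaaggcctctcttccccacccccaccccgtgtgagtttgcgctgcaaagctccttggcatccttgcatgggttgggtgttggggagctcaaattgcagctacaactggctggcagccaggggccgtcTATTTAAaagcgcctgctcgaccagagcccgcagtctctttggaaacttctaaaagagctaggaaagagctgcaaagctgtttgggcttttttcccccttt
Igfbp1: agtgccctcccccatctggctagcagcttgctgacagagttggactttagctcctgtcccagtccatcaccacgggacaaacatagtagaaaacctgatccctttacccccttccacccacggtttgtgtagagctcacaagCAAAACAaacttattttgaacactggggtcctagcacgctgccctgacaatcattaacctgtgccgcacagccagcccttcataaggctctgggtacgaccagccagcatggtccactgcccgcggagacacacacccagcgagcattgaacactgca

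Relative to the start site, the marked match begins at -51 in Igfbp5 and at -108 in Igfbp1. Searched on both strands, TATTTAA occurs in 4.51% of 32851 promoter windows of this length and CAAAACA in 6.28%. The TCF/LEF core ATCAAAG, the motif read by the DNA-binding partners of β-catenin, occurs in 3.73% of windows and in neither of these. The TATA box TATAAA occurs in 13.62% and in neither of these. The motifs were picked with these windows in view, and a match describes letters, not a bound site.

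Igfbp6, whose product prefers IGF2 over IGF1, gave 0.03, -0.48, -0.27 and -0.71 in null over wild type in pairs 1 to 4. Its mean was -0.36 ± 0.31 (limma adjusted p = 0.867). It was near 0 in pair 1, where Igfbp5 was lowest, and lowest in pair 4. Igfbp2 gave -0.24, 0.17, -0.23 and -0.29, a mean of -0.15 ± 0.21, with pair 2 alone above 0. Igfbp7, a distant relative with weak binding of IGFs, gave 0.12 and 0.10 in pairs 1 and 2 and -0.23 and -0.24 in pairs 3 and 4. Igfbp3, the main carrier of IGFs in adult plasma, split the pairs another way. Its probe mMR029503 gave 0.61, 0.04, -0.43 and 0.02, and its probe mMC015937 gave 0.37, -0.18, -0.12 and 0.19. The pairs thus disagreed in sign for each of these binding proteins, Igfbp5 excepted.

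Igfbp1 had the highest mean of the 57 genes, and this mean came from pair 3. Its product is a secreted IGF carrier made mainly by liver. The ratios were -0.04, -0.02, 2.13 and 0.46 in null over wild type in pairs 1 to 4, a mean of 0.63 ± 1.02 (limma adjusted p = 0.867). Both arrays of pair 3 carried the high value, at 2.00 and 2.25. The 9 liver markers measured, among them albumin (Alb) and the fibrinogen chains, had medians of -0.22, -0.18, 1.92 and 0.39 in the same pairs. Pancreas markers (6 of 8 listed measured) had medians of -0.04, -0.04, 1.68 and 0.15, and erythroid markers (5 of 8) 0.34, -0.59, 1.60 and 0.39. Igfbp1 thus was high in the pairs in which liver markers were high, and the part of other tissue in its ratio was not tested.

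The IGF ligands and receptors lay below 0 by smaller amounts. Igf1, made by fetal mesenchyme and a general growth signal, gave -0.66, 0.04, -0.25 and -0.32 in null over wild type on probe mMA031644, a mean of -0.30 ± 0.29 (limma adjusted p = 0.867). Its other probe, mMC021536, gave -0.54, -0.01, -0.09 and -0.25, a mean of -0.23 ± 0.23. Both probes put pair 1 lowest and pair 2 at about 0. Igf2, the imprinted fetal growth factor, gave -0.14, -0.13, 0.03 and -0.28, a mean of -0.13 ± 0.13. Igf1r, the signalling receptor of both ligands, gave -0.06, 0.09, -0.08 and -0.21, a mean of -0.06 ± 0.12. Igf2r, which takes IGF2 to the lysosome, gave -0.29, -0.26, -0.25 and 0.04, a mean of -0.19 ± 0.16. For Igf2r the dye mattered more than for the others, since its mean was -0.36 over the Cy5-labelled null samples and -0.02 over the Cy3-labelled ones.

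**Figure D2:**
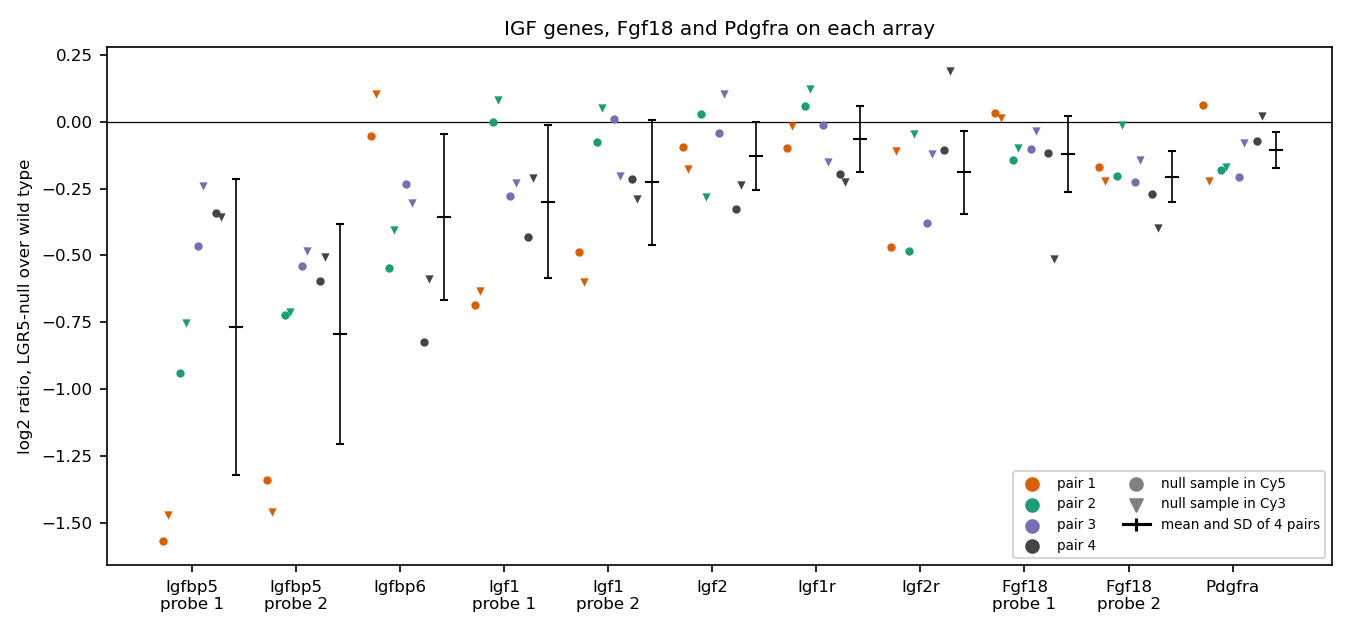
Log2 ratio of null over wild type (y axis) on each of the 8 arrays for the IGF ligands, their receptors, Igfbp5, Igfbp6, Fgf18 and Pdgfra, with colours for pairs, circles for null samples labelled with Cy5 and triangles for those labelled with Cy3, and black bars for mean ± SD of 4 pairs. Igfbp5 lay below 0 on all 8 arrays with both probes, from -1.57 to -0.24 and from -1.46 to -0.48, while the others came within 0.1 of 0 or crossed it on some array.

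The lower IGF genes are known in mesenchyme, so fibroblast markers stand beside them. The 8 fibroblast markers had medians of -0.49, -0.19, -0.14 and -0.47 in null over wild type in pairs 1 to 4. Of the 8, 6 lay below 0 in all 4 pairs, as did 1252 of all 15123 genes. At an unadjusted p under 0.05, 6 of the 8 lay below 0, against 3.68% of all genes below 0 at that p and 2.64% above. Their gene means ran from -1.07 for Mfap5 to -0.12 for Lum. The 8 endothelial markers had medians of -0.12, -0.23, -0.15 and -0.10, with 5 of 8 below 0 in all 4 pairs and 5 of 8 below 0 at an unadjusted p under 0.05. Both lists were chosen with earlier results of these data known, so these counts describe the lists and are not a test of them. Smooth muscle markers had medians of -0.03, 0.10, -0.15 and 0.09. The part of fibroblast or endothelial content in the ratios of Igfbp5, Igfbp6 and Igf1 was not tested.

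Other genes of the 4 pathways came from a list of 47, of which 35 were measured. The list was chosen with earlier results of these data known. None passed over all genes. At an unadjusted p under 0.05, 1 lay above 0, against 2.64% of all genes, and 5 lay below, against 3.68% of all genes. The lowest was Htra1, a secreted protease that cleaves IGFBP5 among other matrix proteins, at -1.27, -0.28, -0.58 and -0.73 in null over wild type, a mean of -0.71 ± 0.42 (limma adjusted p = 0.727 over genes). Htra1 and Igfbp5 both had their lowest ratio in pair 1. Flrt2 and Flrt3 encode membrane proteins of the FLRT family, which has members that bind FGF receptors. These 2 genes averaged -0.42 ± 0.14 and -0.33 ± 0.28 and lay below 0 in all 4 pairs. Pdgfrl, a gene resembling PDGF receptors, averaged -0.18 ± 0.07, and Gab1, a docking protein downstream of several receptor kinases, -0.13 ± 0.10. The gene above 0 was Dusp4, a phosphatase that acts on MAP kinases, at 0.20 ± 0.13. The median of the 35 genes was -0.01, against 0.00 over all genes.

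Among the 16 secreted FGF ligands, 9 had a mean below 0 and 7 above, with a median of -0.01. Fgf18, a ligand that signals mainly through FGFR3 and the mesenchymal receptor isoforms, was the only one with a probe at an unadjusted p under 0.05. That probe, mMR030823, gave -0.20, -0.11, -0.18 and -0.33 in null over wild type in pairs 1 to 4, a mean of -0.20 ± 0.09 (limma adjusted p = 0.804). It lay below 0 on all 8 arrays. The other Fgf18 probe, mMA032798, gave 0.02, -0.12, -0.07 and -0.32, a mean of -0.12 ± 0.14. The difference was small, about 0.868 of the wild-type level on the first probe, and the spread between pairs was small as well.

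Fgf10, a mesenchymal ligand of the epithelial FGFR2 isoform, differed between its probes. Probe mMR027330 gave -1.12, -0.01, -0.20 and -0.32 in null over wild type, a mean of -0.41 ± 0.49 (limma adjusted p = 0.867). Probe mMC022453 gave -0.20, 0.04, -0.10 and 0.05. Both put pair 1 lowest, but by unlike amounts. In mice Fgf10 is needed for growth of the caecum and colon. Some genes that mark position along the gut also had low ratios in pair 1. Among 15 posterior Hox genes, a list added after the values were seen, 6 had ratios under -0.5 in pair 1. Pair 3 had 1 such gene, and pairs 2 and 4 had 0. The share of all genes under -0.5 in each pair was not counted, so these counts have no background beside them. In pair 1 the list ran from -3.81 for Hoxd10 to 0.75 for Hoxc9, and Hoxd11, Hoxd12, Hoxd13 and Hoxb13 were between -0.02 and 0.02. The part of the sampled gut position in the Fgf10 ratio was not tested.

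Fgf1, a ligand of all FGF receptors, was high in pair 1. Its probe mMC015655 gave 1.19, -0.16, -0.09 and 0.37 in null over wild type, a mean of 0.33 ± 0.62, and its probe mMA034552 gave 0.69, 0.03, -0.09 and 0.18. Fgf4 had a mean of 0.34 ± 0.67 that rested on 1 array, since the arrays of pair 3 gave 0.004 and 2.69 and no other array exceeded 0.093. Fgf20 in pair 4 was likewise uneven, at 0.12 on one array and 0.65 on the other. Fgf9, an epithelial and mesothelial ligand that acts on gut mesenchyme in mice, gave -0.09, 0.20, -0.20 and -0.18, with both arrays of pair 2 at 0.20. Fgf8 lay above 0 in all 4 pairs, but at 0.04 ± 0.02. Fgf2, Fgf3, Fgf7, Fgf16, Fgf17, Fgf21, Fgf22 and Fgf23 had means within 0.05 of 0.

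The 4 intracellular members, Fgf11 to Fgf14, are not secreted and bind sodium channels in excitable cells. Fgf13 probe mMR027193 gave -0.65 in pair 1 and between -0.07 and -0.05 in the other pairs, and probe mMC021271 gave -0.28, 0.04, -0.14 and 0.24. The third Fgf13 probe, mMA032862, gave 0.10 in pair 1, so the probes disagreed in sign. Markers of enteric neurons and glia had medians of -0.53, -0.05, -0.05 and 0.09 in the same pairs, and their part was not tested. Fgf11, Fgf12 and Fgf14 had means within 0.05 of 0.

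Of the FGF receptors, Fgfr1, the main receptor of mesenchyme, had 2 probes that differed in pair 3. Probe mMC019594 gave -1.13 in null over wild type in pair 3, from arrays of 0.071 and -2.34, and probe mMA034879 gave 0.26 in the same pair. In the other pairs both probes averaged within 0.1 of 0. Fgfr2, which in its epithelial form receives FGF7 and FGF10, was low in pair 1 on 2 of its 4 probes. Probe mMC007281 gave -0.74, 0.26, 0.18 and 0.09, and probe mMR031226 gave -0.50, 0.13, 0.16 and 0.29. The other 2 probes, mMA032433 and mMA035706, gave -0.14 and 0.04 in pair 1, and the first of them had 0.894 and 0.08 on the arrays of pair 4. Pair 1 thus opposed the other pairs on the first 2 probes. Fgfr3 and Fgfr4 averaged 0.02 and 0.07 over their probes.

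The FGF targets and inhibitors act as a readout of the pathway in many tissues. The 6 genes were split between pairs, with 5 means below 0 and 1 above and a median of -0.03. Spry2, an inhibitor of receptor kinase signalling, gave -0.27, 0.14, -0.57 and 0.08 in null over wild type, a mean of -0.15 ± 0.33. Etv5, a transcription factor induced by FGF signals, gave -0.39, -0.06, -0.13 and 0.21, a mean of -0.09 ± 0.25. Dusp6, a phosphatase that acts on ERK, gave -0.18, -0.30, -0.20 and 0.33 on probe mMC011102. On its other probe the pair values lay within 0.1 of 0, but the arrays of pair 3 gave 0.224 and -0.325. Pair 4 was the highest for Etv5 and for both Dusp6 probes, and pair 2 the highest for Spry2. Etv4 and Spry4 averaged -0.01 and -0.02, and Spry1 0.07.

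Of the PDGF receptors, Pdgfra, a marker of gut mesenchyme that forms villus clusters in mice, gave -0.08, -0.17, -0.14 and -0.02 in null over wild type. Its mean was -0.11 ± 0.07 (limma adjusted p = 0.867), or 0.929 of the wild-type level, and 6 of 8 arrays lay below 0. Pdgfrb, the receptor of pericytes and vascular smooth muscle, gave -0.08, -0.33, -0.06 and 0.39, with pairs 2 and 4 on opposite sides. The PDGF ligands were as uneven. Pdgfa, an epithelial ligand of PDGFRA, gave -0.10, -0.30, -0.40 and 0.20 on probe mMC003552 and 0.11, -0.21, -0.07 and 0.08 on probe mMR030523. Pdgfb probe mMC001560 gave -0.25, -0.33, 0.01 and 0.22, and Pdgfc probe mMR029499 gave -0.45 in pair 1. Pdgfd, another ligand of PDGFRB, averaged -0.07 over its 2 probes. All 4 ligand genes had a mean below 0, between -0.09 and -0.03, each smaller than its SD between pairs.

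Of the 8 EGF-type ligands, Ereg, Btc, Hbegf and Tgfa were highest in pair 1, while Egf and Nrg3 were lowest there. Ereg (epiregulin), a ligand of EGFR, gave 1.26, -0.09, 0.07 and -0.01 in null over wild type on probe mMR028349, a mean of 0.31 ± 0.64, and 0.64, -0.04, 0.10 and 0.04 on probe mMC002918. Btc (betacellulin) gave 0.54, -0.15, 0.11 and 0.20, Hbegf (heparin-binding EGF) 0.38, -0.01, 0.11 and 0.17, and Tgfa 0.27, -0.09, -0.05 and -0.03. For all 4 genes pair 1 was the highest and pair 2 the lowest. The 9 immediate early and stress genes had medians of 0.78, -0.13, 0.15 and 0.26 in the same pairs. In pair 1, 8 of the 9 lay above 0, and the list ran from -0.01 for Fosb to 2.10 for Fos. Errfi1, an inducible inhibitor of EGFR, gave 0.71, 0.04, 0.10 and 0.01. The part of any immediate early or stress response in the ligands' ratios was not tested. Egf itself gave -0.28, 0.06, 0.08 and -0.08, and Nrg1, Nrg3 and Nrg4, ligands of ERBB-family receptors, averaged -0.01, -0.06 and 0.01. Egfr and its inhibitor Lrig1 averaged 0.06 ± 0.07 and 0.01 ± 0.11, so the receptor showed no difference larger than its spread.

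**Figure D3:**
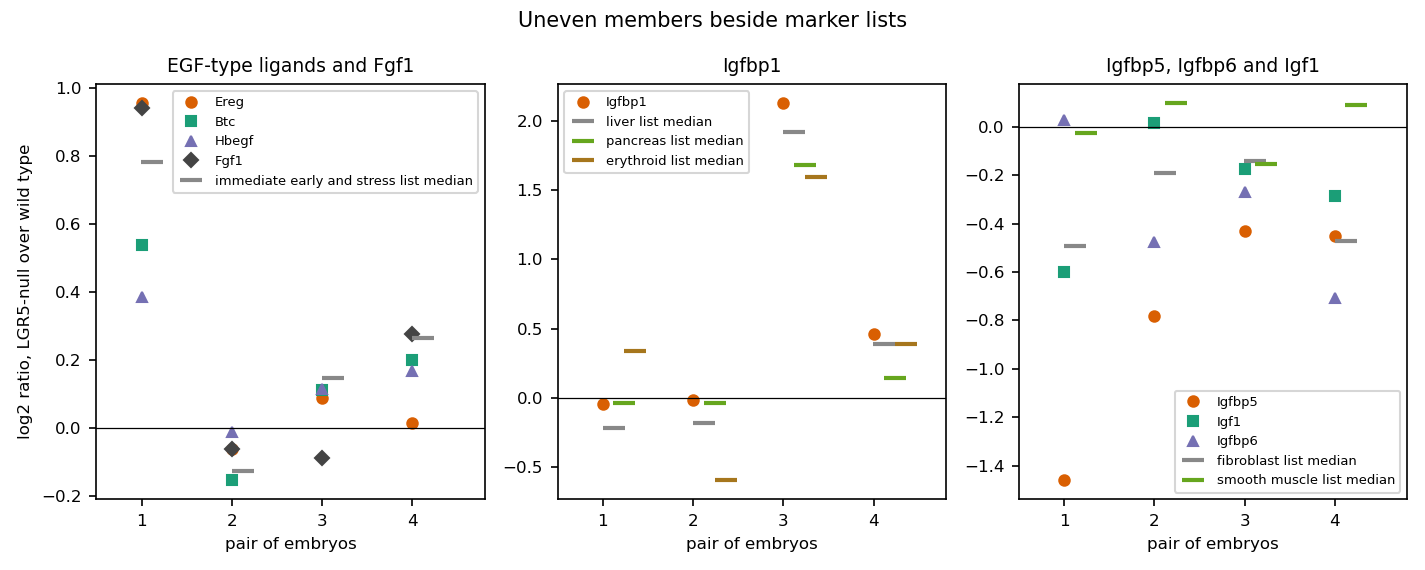
Log2 ratio of null over wild type (y axis) in pairs 1 to 4 (x axis) for uneven members (symbols, mean of a gene's probes) and for medians of marker lists (bars). Ereg, Btc, Hbegf and Fgf1 were highest in pair 1 with the immediate early list at 0.78 (left). Igfbp1 was highest in pair 3 with the liver list at 1.92 (middle). Igfbp5 was lowest in pair 1 at -1.46, with the fibroblast list at -0.49 (right). The fibroblast list was nearly as low in pair 4, at -0.47, where Igfbp5 was at -0.45. Igfbp6 was at 0.03 in pair 1.

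Many of these genes differed between the pairs of embryos. A test of whether the 4 pairs shared 1 ratio, on the 8 arrays with a dye term, called 33 of the 86 probes, from 25 genes (limma moderated F-test, adjusted over all probes), a share of 38.4% against 22.9% of all probes. All 8 probes of IGF binding proteins were called, 5 of 11 of EGF-type ligands, 4 of 8 of PDGF ligands and 4 of 20 of secreted FGF ligands. Of the EGFR and Lrig1 probes 0 of 3 were called. The error in this test is that between the arrays of a pair, which is technical. The median SD between pairs was 0.134 for the 86 probes, against 0.0959 for all probes. Pair 1 had the largest absolute ratio for 39 of the 86 probes, pair 2 for 12, pair 3 for 12 and pair 4 for 23. The same was not counted over all probes, so these 4 counts have no background beside them. Without pair 1, the test called 5 of the 86 probes, of Fgf1, Igfbp1, Pdgfa, Pdgfrb and Spry2, a share near the 4.27% of all probes. Most of the 33 calls were thus lost without pair 1.

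**Figure D4:**
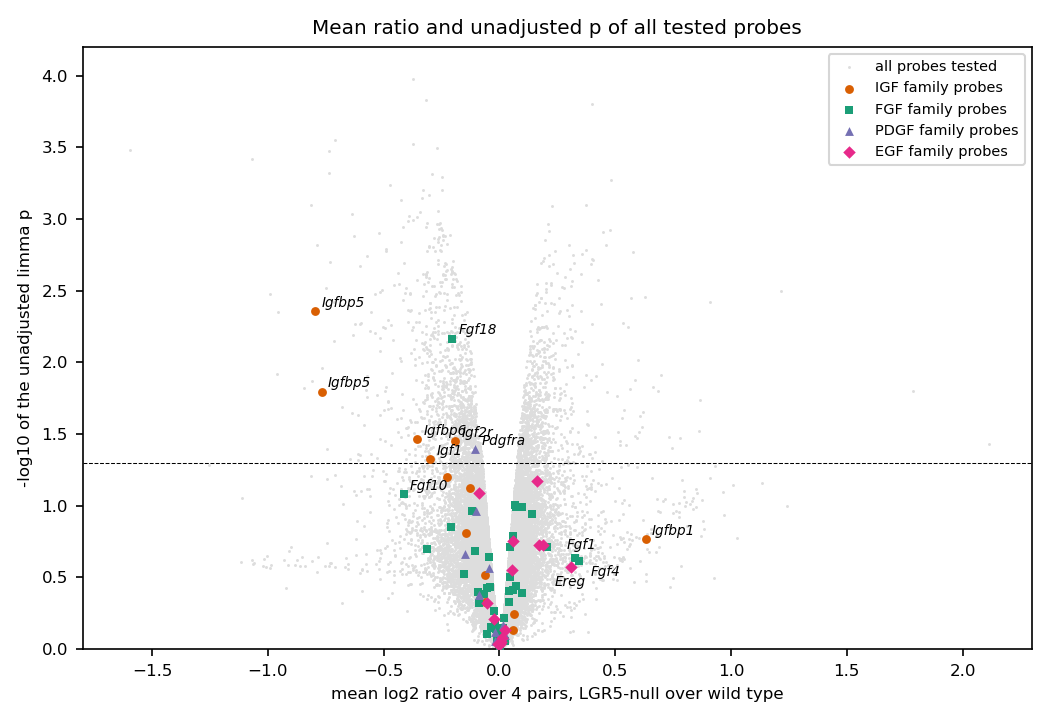
Mean log2 ratio of null over wild type over 4 pairs (x axis) against the negative log10 of the unadjusted limma p (y axis) for all tested probes (grey) and the growth factor probes by family (coloured), with a dashed line at the 0.05 level. The 7 growth factor probes above the line all lie left of 0, with both Igfbp5 probes near -0.8, and none lies right of 0 above the line.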

How the data were processed

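The values deposited by the authors are log2 ratios, 1 per probe and array, as taken here. The sources used here do not give the log base, the numerator, the normalization, the image software or any filter. RNA was amplified with aminoallyl nucleotides and coupled to Cy5 or Cy3, per the labels' protocols. The labels name the null sample as channel 1 on every array. The arrays of a pair, with dyes exchanged, correlate above 0 and the Lgr5 probe lies below 0 on all 8 arrays, so ratios were read as null over wild type, a direction that is likely and not stated. Ratios were used as deposited. Such ratios depend on the unknown background correction, which can pull the ratios of dim probes towards 0 or spread them out. The number of arrays limits the precision.

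Probes were named from the platform annotation, which gives 1 symbol for 22941 probes, all found in RefSeq's gene table of GRCm38.p6, and none for 15526. The tests used 36591 probes and left out 1876 in 4 identifier classes without any annotated gene. The mean of the pairs was compared with 0 by lmFit and eBayes of limma 3.58.1 (R 4.3.3), 2-sided, with Benjamini-Hochberg adjustment over all tested probes or genes. A gene's value is the mean of its probes. Of the 24 genes with several probes, 14 had probe means of 1 sign. Gaps over 0.2 between probe means occurred in Fgf10, Fgf13 and Fgfr1. Tests were checked on simulated data. Replicate numbers name pairs of embryos on shared arrays, so the pairing is part of each ratio. The random block used a consensus correlation of 0.306.

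The members, roles and lists were chosen with earlier results of these data known. A rule picked members with a probe at an unadjusted p under 0.05 and 1 sign in all pairs. It also picked members that differ between pairs by a range of at least 1, and otherwise the 2 largest means of a role. Values by pair are given for most of these, and some, such as Egfr, Lrig1 and Fgfr4, are given as means alone. Any other member may be named within its role. Values by pair of such members, among them Igfbp6, Btc and Fgfr2, are given without a fixed rule. The alternatives were the random block, other scaling and centring, single dyes, all probes, genes in place of probes, a robust variance prior, each pair left out, and pairs 2 and 4 alone.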

Additional observations from a re-analysis of the deposited data

Results flagged for a closer look

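A single pair stood apart from the other 3, by Dixon's 95% critical value for 4 values, in 7 of 51 probe values and list medians examined. Chance flags about 1 in 20 groups of values, but some of these probes were taken for their wide range between pairs and several belong to 1 gene, so the number is a description. Pairs 1 and 3 each held 3 of the 7 and pair 4 held 1.

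Ereg probe mMR028349 was at 1.26 in null over wild type in pair 1, with the other pairs between -0.09 and 0.07. Fgf13 probe mMR027193 was at -0.65 in pair 1, with the others between -0.07 and -0.05. The median of the leukocyte markers was 0.23 in pair 1, against 0.03 to 0.06 in the others. In pair 3, Fgfr1 probe mMC019594 was at -1.13 and Fgfr1 probe mMA034879 at 0.26, opposite in sign, and the lower value came from 1 of the 2 arrays. The median of the pancreas markers was 1.68 in pair 3, with the others between -0.04 and 0.15. Igf2r was at 0.043 in pair 4, with the others between -0.29 and -0.25.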

How the results depend on the processing

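The call of 0 growth factor probes past the threshold held in every alternative but the replicate block (the pair as a random block on 8 arrays), which called 1, Igfbp5 probe mMR030084. That fit counts the 2 technical arrays of a pair in part as separate replicates. The count below 0 at an unadjusted p under 0.05 was 7, and 4 to 7 with 1 pair left out, lowest without pair 3. With pairs 1 to 4 left out in turn, the shares were 5.81%, 8.14%, 4.65% and 8.14%. The shares of all probes were 3.13%, 3.78%, 2.44% and 1.97%. With the null sample in Cy3 alone the count was 5 (5.81%, close to the 5.14% of all probes), and in Cy5 alone 7 (8.14%, against 5.49%). In pairs 2 and 4 alone it was 5 (5.81%, against 2.58%), and with the replicate block 10 (11.6%, against 4.79%). For genes in place of probes it was 5 of 57, against 3.68% of all genes. Of the 7, 4 were shared without pair 1, 3 without pair 2, 3 without pair 3 and 5 without pair 4. Igfbp5 probe mMR030084 and Fgf18 probe mMR030823 stayed in each of these (in pairs 2 and 4 alone, that Fgf18 probe left), and the other Igfbp5 probe, Igfbp6, Igf1, Igf2r and Pdgfra each left in at least 1. The count above 0 was 0, and 0 to 3 with 1 pair left out. It was 2 without pair 1 (both Fgfr2), 3 without pair 2, 3 in Cy5 alone, 1 with the replicate block and 1 in pairs 2 and 4 alone. The share of all probes above 0 was not counted in these alternatives, so these counts have no background beside them. The count that differed between pairs was 33, and 5 to 33 with 1 pair left out, lowest without pair 1. Of all probes, 4.27% to 24.4% differed with 1 pair left out, also lowest without pair 1. The member count was 8 in pairs 2 and 4 alone, where 3.9% of all probes differed. Without the dye term it was 25, where 13.7% of all probes differed. The cause of these changes was not tested. For the genes picked by the rule, 39 probe means were compared under 13 alternatives each. Of 507 values, 32 turned sign, and 22 means kept theirs throughout. Members outside that rule, such as Igfbp6 and Fgfr2, were not among the 39. With 4 pairs, and without spot brightness, differences of the size of most members' spread could not be told from 0.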

Other observations

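The rule left out Fgf15 and Igfbp4. Fgf15, the ileal hormone that represses bile acid synthesis in the liver, gave log2 ratios of 2.52, -0.15, 2.53 and 2.25 in null over wild type across pairs 1 to 4, which average 1.78 ± 1.30 (SD, n = 4; limma adjusted p = 0.727 over genes). Pair 2 stood on the other side of 0. Igfbp4, a further IGF binding protein, gave -0.57, -0.36, 0.04 and -0.23, a mean of -0.28 ± 0.26. Both were named after their values were seen.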
